A study of Homo sapiens with 8 samples.

Results

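The interval of chromosome 7 from 50 to 60 Mb (hg19) surrounds EGFR, the gene of the epidermal growth factor receptor. It was selected on measured values of these same libraries, the density of DNase hypersensitive site (DHS) peaks near EGFR and the RNA fold changes of the genes there. Its members are the 2140 peaks, of 282355 in 4 peak lists, whose centres lie in it, and the 31 genes, of 22506 placed on GRCh37, whose start sites lie in it, EGFR itself left aside. The peak counts in the interval were 974 of 59600 DHS peaks and 353 of 117861 H3K4me2 peaks in PC9R, against 627 of 19648 DHS peaks and 186 of 85246 H3K4me2 peaks in PC9. Because density and fold changes chose the interval, both are given as descriptions.

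PC9 is a human lung adenocarcinoma line whose EGFR carries an activating mutation and whose growth is stopped by gefitinib, which inhibits the EGFR kinase. PC9R is the line obtained from PC9 by 1 to 2 weeks of gefitinib, per the labels, and both lines were used at passages 8 to 12. Per line there were 2 RNA libraries, 1 DHS library and 1 H3K4me2 ChIP library. Line and drug exposure cannot be told apart, the labels do not say whether gefitinib was present at harvest, and the labels name no separate cultures behind the RNA libraries, so the p-values reflect how far these libraries varied, possibly for technical reasons alone. RNA totals were 32502455 and 16715426 counts in PC9R and 32515891 and 16013058 counts in PC9, so that the first libraries of both lines were about equally deep and the second ones shallower. Epithelial markers (9 genes) summed to 10757 to 18815 CPM (counts per 1e6 of the scaled library total) in PC9R and 10552 to 24187 CPM in PC9, although NKX2-1 and SFTPB, markers of alveolar and surfactant cells, were at 9 counts or fewer in every library. The leukocyte markers PTPRC and CD3E were at 3 counts or fewer in every library. The endothelial list (3 genes) summed to 46.8 and 20.0 CPM in PC9R, against 22.4 and 12.7 CPM in PC9, and the fibroblast list (4 genes) to 64.3 and 13.7 CPM in PC9R, against 24.2 and 6.07 CPM in PC9. Both sums overlapped between the lines but were higher in PC9R within each library number. PECAM1, an endothelial adhesion protein, had 9.71 and 6.48 CPM in PC9R, against 5.17 and 3.60 CPM in PC9. CDH5 made up most of the endothelial sum, with 35.8 and 13.3 CPM in PC9R and 15.6 and 8.81 CPM in PC9, which overlapped. VWF had 1.28 and 0.297 CPM in PC9R and 1.60 and 0.267 CPM in PC9, so its first libraries went the other way. Nearly all of the fibroblast sum was COL1A1, with DCN at 0 and LUM at 1 count or fewer in every library. Their part in the results was not tested.

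EGFR is a receptor tyrosine kinase that passes growth factor signals to the cell, and its gene is often gained in copy number in lung cancer, together with neighbours such as SEC61G, LANCL2 and VOPP1. DNase I cuts open DNA more readily than packed DNA, so a DHS peak marks accessible chromatin, and the number of reads at a site also grows with the number of copies of that DNA. H3K4me2 is a histone mark of promoters and enhancers. Copy number was not measured in the files used here, so differences in accessibility and in DNA copies cannot be told apart in these peaks.

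The sequences shown are from GRCh37, plus strand, 5′ to 3′, around the centres of 7 DHS peaks: the highest-scored one of PC9R, the highest-scored ones present in all 4 lists, the highest-scored one present in only 1 of the lines, and those at start sites of the most counted genes. They set the leading PC9R peak, which lies between genes, beside peaks at start sites, within EGFR and in 1 line only. A peak at a start site here reaches within 1 kb of it. The peak labelled for PSPH and CCT6A covers neither start site. Its centre lies in a CCT6A exon, 113 bases after the CCT6A start site. Asking for presence in all 4 lists keeps only peaks with H3K4me2. Each window was 300 bases, and where it held an annotated untranslated region only its longest remaining piece is printed. Capitals mark 4 motifs searched on both strands: TGANTCA (bound by AP-1), GGGCGG (the GC box), CCAAT (bound by NF-Y) and the core of the CTCF motif. None of the motifs overlapped another one here.
Between genes, 341 kb before the VSTM2A start site, chr7:54269273-54269572, highest in PC9R: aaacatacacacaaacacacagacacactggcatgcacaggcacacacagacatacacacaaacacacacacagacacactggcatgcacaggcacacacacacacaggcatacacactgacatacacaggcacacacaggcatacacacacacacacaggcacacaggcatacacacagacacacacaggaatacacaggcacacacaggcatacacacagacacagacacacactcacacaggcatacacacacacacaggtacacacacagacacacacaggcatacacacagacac
CHCHD2 start site, chr7:56173957-56174106, highest in PC9R of the peaks in all 4 lists: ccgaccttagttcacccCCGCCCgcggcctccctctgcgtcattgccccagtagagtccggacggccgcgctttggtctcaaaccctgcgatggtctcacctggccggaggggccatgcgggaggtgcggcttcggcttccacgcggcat
LANCL2, 1.02 kb after its start site, chr7:55433903-55434202, highest in PC9 of the peaks in all 4 lists: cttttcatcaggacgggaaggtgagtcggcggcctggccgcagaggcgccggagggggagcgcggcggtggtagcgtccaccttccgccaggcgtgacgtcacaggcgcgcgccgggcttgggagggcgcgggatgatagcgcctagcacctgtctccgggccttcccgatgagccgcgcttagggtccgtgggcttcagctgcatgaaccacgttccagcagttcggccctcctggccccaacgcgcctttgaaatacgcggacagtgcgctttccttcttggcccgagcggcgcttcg
EGFR intron, chr7:55160328-55160627, highest of the peaks in PC9R only: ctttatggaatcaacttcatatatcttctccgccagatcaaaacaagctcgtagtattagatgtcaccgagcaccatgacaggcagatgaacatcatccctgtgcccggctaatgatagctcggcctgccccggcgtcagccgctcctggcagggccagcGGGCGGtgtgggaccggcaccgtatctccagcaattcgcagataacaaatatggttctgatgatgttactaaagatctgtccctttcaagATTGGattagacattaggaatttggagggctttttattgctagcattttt
Between SEC61G and EGFR, chr7:55035122-55035421, highest of the peaks in PC9 only: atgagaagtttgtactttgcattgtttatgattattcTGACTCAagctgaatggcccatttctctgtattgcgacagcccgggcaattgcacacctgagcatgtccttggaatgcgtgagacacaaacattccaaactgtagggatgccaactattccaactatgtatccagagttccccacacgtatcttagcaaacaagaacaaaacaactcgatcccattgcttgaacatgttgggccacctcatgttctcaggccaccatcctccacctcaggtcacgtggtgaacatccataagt
PSPH and CCT6A start sites, chr7:56119542-56119721, PC9R peak: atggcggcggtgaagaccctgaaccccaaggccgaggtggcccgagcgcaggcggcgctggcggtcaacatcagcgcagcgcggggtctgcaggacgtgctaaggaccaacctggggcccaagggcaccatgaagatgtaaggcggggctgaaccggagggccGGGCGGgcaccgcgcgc
VOPP1, before its start site, chr7:55640453-55640752, PC9R peak: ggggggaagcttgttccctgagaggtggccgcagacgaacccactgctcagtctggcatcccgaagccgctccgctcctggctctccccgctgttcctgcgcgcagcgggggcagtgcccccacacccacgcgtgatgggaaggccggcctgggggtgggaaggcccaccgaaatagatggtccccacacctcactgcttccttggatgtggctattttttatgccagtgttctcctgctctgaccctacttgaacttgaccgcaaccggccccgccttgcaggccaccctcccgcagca

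The CHCHD2, CCT6A and EGFR intron windows each held 1 GC box, the EGFR intron window also held 1 CCAAT, and the window found in PC9 only held 1 TGANTCA. The LANCL2 and VOPP1 windows and that of the highest PC9R peak held none of the 4 motifs. The highest PC9R peak lies on repeated sequence, short runs of alternating C and A broken by G and T, across the whole window. How reads that fit more than 1 place were treated there is not stated. Over windows of the same length on all DHS peaks of PC9R and PC9, the GC box occurred in 22.3% and 31.6%, CCAAT in 26.3% and 33.3%, TGANTCA in 6.57% and 11.6%, and the CTCF core in 1.41% and 1.50%. These are matches of letters and not measured binding. The peak in the EGFR intron lay 73.8 kb after the EGFR start site and ranked 175 by score among the PC9R DHS peaks, without an H3K4me2 peak over it. The peak found in PC9 only lay 51.4 kb before the EGFR start site, ranked 482 in its list and overlapped a PC9 H3K4me2 peak.

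DHS peaks were densest in a stretch around EGFR in both lines. Among bins of 100 kb with over 5 times the genome's mean number of peaks, the longest run of the interval went from 53.3 to 56.4 Mb in PC9R and also in PC9, single lower bins inside a run being allowed. PC9R had 4 other runs in the interval, from 50.3 to 51.1 Mb, 51.3 to 52.1 Mb and 52.6 to 53.1 Mb, and 1 bin at 56.6 Mb, with 7 to 20 peaks per bin. PC9 had 2 others, single bins at 50.5 and 52.0 Mb with 4 peaks each. The longest run is called the dense stretch here. The first bin inside held 19 peaks in PC9R and 16 in PC9, against 4 and 1 in the bin just before it. The last bin inside held 10 peaks in PC9R and 15 in PC9, against 4 and 1 in the bin just after it. The bar for a dense bin was 9.62 peaks in PC9R and 3.17 in PC9.

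A fit of 2 steps in a Poisson rate to 10 kb bins placed both edges at the same positions in the lines, 53.31 Mb and 56.39 Mb, which makes 3.08 Mb. The positions within 2 log-likelihood units ran from 53.27 to 53.35 Mb and from 56.30 to 56.44 Mb in PC9R, and from 53.30 to 53.31 Mb and from 56.39 to 56.40 Mb in PC9. The PC9 edges were sharper in this sense. At the left edge the gap between neighbouring peaks was 15.1 kb in PC9R and 66.7 kb in PC9, and at the right edge 19.2 kb in PC9R and 50.1 kb in PC9. Of the 500 kb on each side of the left edge, the inner side held 81 peaks in PC9R and 98 in PC9, and the outer side 45 and 6. At the right edge the inner 500 kb held 69 peaks in PC9R and 70 in PC9, and the outer 500 kb 29 and 1.

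**Figure D1:**
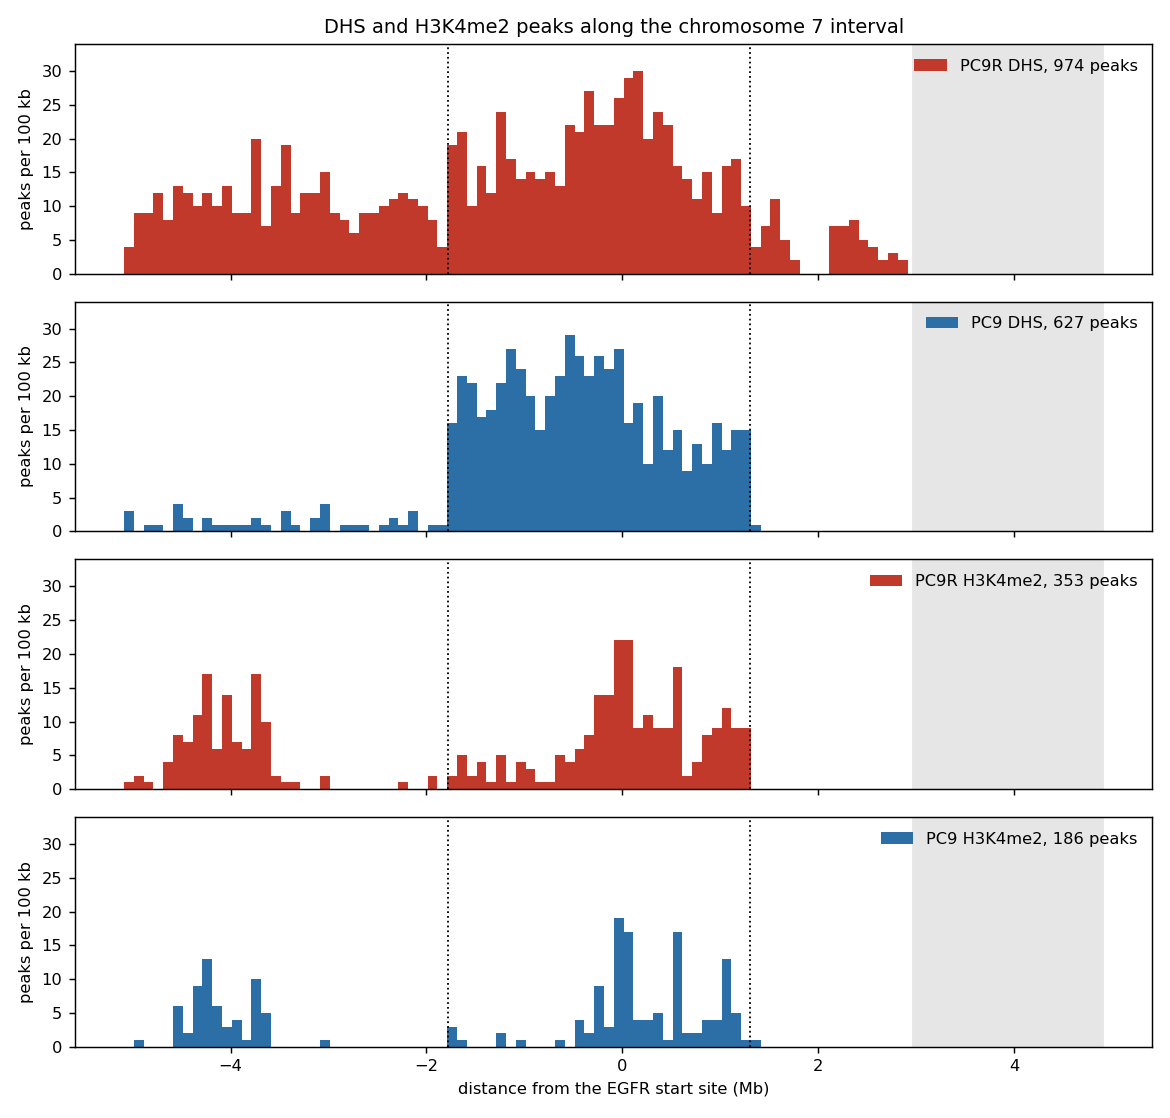
Peaks per 100 kb along the interval by distance from the EGFR start site (Mb), DHS above and H3K4me2 below, PC9R over PC9 in each pair; dotted lines mark the fitted edges of the dense DHS stretch and grey marks unassembled sequence at the centromere. DHS bins inside the stretch reach 30 peaks in PC9R and 29 in PC9, and outside it PC9R still holds peaks in nearly every bin while PC9 holds few.

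Inside the stretch the lines held similar numbers of DHS peaks, 563 in PC9R and 584 in PC9, or 183 and 190 per Mb. Outside it they did not. The assembled sequence from 50 Mb to the left edge held 344 peaks in PC9R and 42 in PC9 (105 and 12.8 per Mb), and that from the right edge on held 67 in PC9R and 1 in PC9. The ratio of PC9R to PC9 peaks was thus 0.964 in the stretch, 8.19 to its left, 8.50 over the rest of the short arm, 3.59 on the long arm and 3.08 over the rest of the genome. The PC9R list was the longer of the pair, and when both were shortened to equal numbers by score the interval held 570 PC9R peaks and 627 PC9 peaks, which turns the order of the interval totals round. With 1 library per line, none of these ratios has a replicate check.

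Against the rest of the genome, with 20.6 peaks per Mb in PC9R and 6.67 in PC9, the stretch was 8.89 times as dense in PC9R and 28.4 times as dense in PC9. Against its own left side it was 1.74 times as dense in PC9R and 14.8 times in PC9. The left side was itself dense in PC9R, at 5.12 times the rest of the genome, against 1.93 times in PC9. That PC9R plateau began before the interval: the 7 windows of 1 Mb from 46 to 53 Mb held 89 to 123 PC9R peaks each, against 12 to 24 PC9 peaks. The 5 windows from 40 to 45 Mb held 34 to 61 PC9R peaks and 1 to 13 PC9 peaks. Accordingly the length of the PC9R stretch moved with the bar set for a dense bin, to 11400 kb at 3 times the genome's mean and 1200 kb at 8 times, while that of PC9 stayed at 3100 kb under both.

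**Figure D2:**
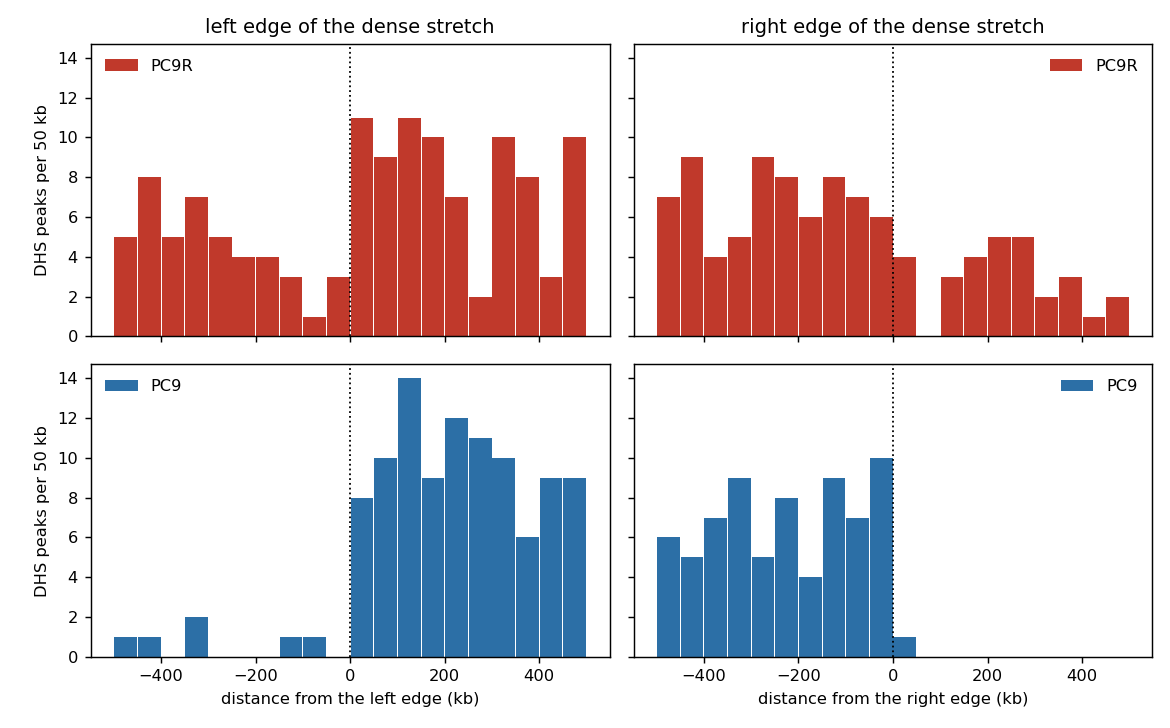
DHS peaks per 50 kb within 500 kb of each fitted edge of the dense stretch (distance in kb; negative is toward the short arm's end), PC9R in the upper row and PC9 in the lower row. Peaks outside the right edge number 29 in PC9R and 1 in PC9, and outside the left edge 45 in PC9R and 6 in PC9.

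Among all windows of 10 Mb with sequence, the interval ranked 1 of 322 by DHS peaks in PC9R and 2 of 322 in PC9, behind a window of chromosome 3 that held 934. For windows of 1 Mb the highest in PC9R began at 55 Mb with 207 peaks and the next at 54 Mb with 185, and the highest in PC9 began at 54 Mb with 230 peaks and the next at 55 Mb with 151. By H3K4me2 peaks the interval ranked only 160 of 322 in PC9R and 192 of 322 in PC9. The interval, with 8.01 of its 10 Mb assembled, thus stood near the middle by H3K4me2 peaks, which had no part in its choice. The dense stretch within it held 1.84 times as many H3K4me2 peaks per Mb as the rest of the genome in PC9R and 1.34 times in PC9. Against its own left side it held 2.06 times as many per Mb in PC9R and 2.14 times in PC9.

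Within the stretch the lines differed in where the DHS peaks were most frequent. From the left edge to the EGFR start site there were 328 peaks in PC9R and 399 in PC9, or 185 and 225 per Mb. Over the EGFR gene itself there were 53 in PC9R and 30 in PC9, or 275 and 156 per Mb. From the end of EGFR to the right edge there were 182 in PC9R and 155 in PC9, or 164 and 140 per Mb. Of the EGFR gene's DHS peaks, 35.8% in PC9R and 63.3% in PC9 overlapped a peak of the other line.

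Most DHS peaks of the stretch lay far from start sites and carried no H3K4me2, which also held to its left. Of the stretch's DHS peaks, 3.73% in PC9R and 2.74% in PC9 lay within 1 kb of the start site of a coding gene, against 17.4% and 34.8% over the rest of the genome. H3K4me2 of the same line overlapped 17.4% of them in PC9R and 10.6% in PC9, against 26.0% and 53.6% elsewhere. Exact binomial 95% intervals, which cover counting error only, did not overlap between the stretch and the rest of the genome in either line for either share. To the left of the stretch 2.62% of PC9R peaks and 4.76% of PC9 peaks lay at start sites and 9.59% and 21.4% carried H3K4me2, the PC9 shares resting on 42 peaks. Over the rest of the short arm 9.16% of PC9R peaks and 105 of 284 PC9 peaks lay at start sites, and 19.0% and 56.0% carried H3K4me2. In PC9R the H3K4me2 share of the stretch was thus above that to its left, and its interval overlapped that of the rest of the short arm. Counting only peaks away from start sites, the H3K4me2 share was 14.9% in PC9R and 8.27% in PC9 in the stretch, against 13.9% and 32.8% elsewhere, so that the lower share among such peaks was seen in PC9 and the PC9R shares lay close together.

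The peaks shared between lines were a larger part of the stretch than of the genome. A peak of the other line overlapped 57.0% of the stretch's PC9R peaks and 54.5% of its PC9 peaks, against 13.9% and 42.8% over the rest of the genome. To the left of the stretch the shares were 6.69% of PC9R peaks and 57.1% of PC9 peaks, the PC9R list being the longer one there. Over the rest of the short arm they were 6.88% in PC9R and 58.8% in PC9. The share of the stretch was thus above those of both parts in PC9R only. Shared peaks of the stretch scored higher within the PC9R list, with a median at percentile 91.2 against 72.8 for those of PC9R only, while in PC9 the medians were at 72.9 and 68.2. Over the rest of the genome the medians stood further apart, at 75.2 and 43.6 in PC9R and 60.3 and 42.6 in PC9. Higher scores of shared peaks were thus not particular to the stretch. The score is the authors' own, with a scale that the sources do not state, and is used only within a list. The density of peaks also differed between these parts of the genome, and its part in the shared shares was not tested.

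**Figure D3:**
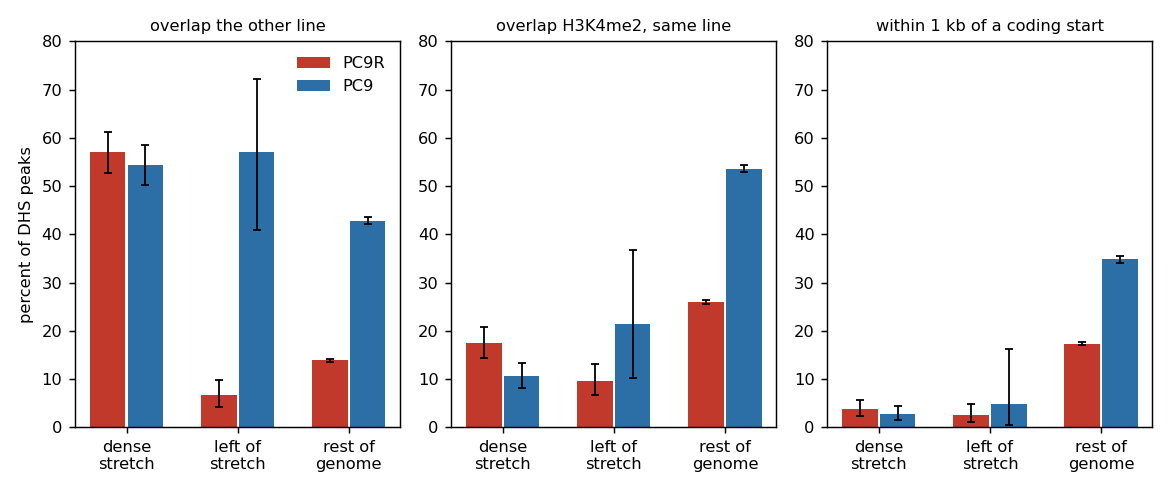
Percent of DHS peaks in the dense stretch, to its left and in the rest of the genome that overlap a DHS peak of the other line, overlap an H3K4me2 peak of the same line, or lie within 1 kb of a coding gene's start; PC9R bars stand left of PC9 bars and error bars are exact binomial 95% intervals. In the stretch 57.0% of PC9R and 54.5% of PC9 peaks are shared, and 3.73% and 2.74% lie near a start site.

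By score the stretch's peaks stood high in their lists, with medians at percentile 84.5 in PC9R and 70.6 in PC9. Their median width was 238 bases in PC9R and 219.5 in PC9, against 211 and 205 over the rest of the genome. The median spacing between neighbouring peaks was 4.13 kb in PC9R and 3.98 kb in PC9. In windows of 300 bases on peaks away from start sites, TGANTCA occurred in 7.38% in PC9R and 10.9% in PC9, against 7.25% and 15.8% elsewhere. The AP-1 motif was therefore as frequent in the PC9R stretch as outside it and less frequent in the PC9 stretch than outside it, as a count with no test.

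The highest-scored DHS peak of the interval in PC9R lay at chr7:54269206-54269639, 341 kb from the nearest coding start site, with rank 149 of 59590. The next in PC9R were the CHCHD2 start site at chr7:56173872-56174341 and a peak between genes at chr7:53455225-53455576. In PC9 the leading peaks were all at start sites, of LANCL2 (chr7:55433722-55434383, rank 57 of 19638), SUMF2 (chr7:56131697-56132413) and CHCHD2 (chr7:56173876-56174473). Each of these 6 peaks overlapped a DHS peak of the other line.

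H3K4me2 peaks were spread differently, in a group at GRB10 and COBL and another around EGFR. The longest run of dense bins went from 55.0 to 55.2 Mb in both lines, with 44 peaks in PC9R and 36 in PC9, and PC9 had 1 more dense bin at 55.6 Mb with 17 peaks. The edge fit gave 54.59 to 56.38 Mb in PC9R and 54.82 to 56.41 Mb in PC9, so the right edge of the marked region was near that of the DHS stretch while the left edge lay over 1 Mb inside it. Peaks in the DHS stretch numbered 233 in PC9R and 123 in PC9, yet they covered 110 kb and 117 kb, the PC9 peaks being wider (median 344 bases in PC9R and 601 in PC9). The covered lengths were thus closer to each other than the peak numbers. Right of the stretch there were 0 H3K4me2 peaks in PC9R and 2 in PC9.

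The highest-scored H3K4me2 peaks in PC9R lay at chr7:55000837-55001815, chr7:55322061-55322751 and chr7:54841543-54842230, none of them at a coding start site. Those in PC9 were at the CHCHD2 start site (chr7:56172486-56174116), at chr7:54841243-54842215 and at the SEC61G start site (chr7:54825094-54826835). The peak 14.8 kb from the SEC61G start site was thus among the leading 3 of both lines.

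Of the 31 genes, 14 passed the filter on low counts and were tested, 3 to the left of the stretch and 11 inside it. The 17 others held at most 2 counts in any library, and 12 of them held 0 in all. The 17 included IKZF1, a lymphoid transcription factor, DDC, an enzyme of dopamine and serotonin synthesis, VSTM2A, and SUMF2, a sulfatase modifying factor by name. Within the interval the DHS peak at the SUMF2 start site scored second in PC9, at rank 68 of 19638 in the whole list. SUMF2 is listed under 5 transcript accessions, and reads shared by accessions may have been dropped in the authors' counting, so its 0 is not read as absence. The same limit applies to IKZF1 with 6 and DDC with 7. Of the tested genes, 13 had a DHS peak within 1 kb of the start site in PC9R and 11 in PC9, and 13 had an H3K4me2 peak there in PC9R and 13 in PC9. Of the untested genes, 10 had such a DHS peak in PC9R and 5 in PC9, and 4 had an H3K4me2 peak in PC9R and 3 in PC9.

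Summed over the interval, RNA counts were lower in both PC9R libraries than in either PC9 library. The 31 genes together took 1442 and 2167 CPM in the PC9R libraries, against 4159 and 4646 CPM in the PC9 libraries. The median log2 fold change (PC9R over PC9) of the 14 tested genes was -1.27, with a range of -3.32 to 0.87, against -0.01 for all 12660 genes tested. It was -1.42 between the first libraries and -1.15 between the second ones, and ran from -1.60 without the second PC9R library to -0.96 without the first PC9R library. Of the 14, 13 had a fold change below 0, against 6403 of 12660 genes. In 11 of the 14 both PC9R libraries lay below both PC9 libraries, which held for 14.9% of all genes tested. Fewer cells of a kind and less RNA per cell cannot be told apart in such bulk libraries.

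No gene of the interval was called by edgeR's quasi-likelihood test without a library term, at an adjusted p of 0.05, a rule that called 0.253% of all genes. At an unadjusted p of 0.05, 7 of the 14 passed, against 7.27% of all genes. DESeq2 called 1 of the 14 (GRB10), against 3.01% of all genes, and limma-voom called 0, against 0.577%. With the library number as a term, 12 of the 14 were called lower in PC9R, against 9.57% of all genes called lower, and 0 were called higher, against 11.2%. Same-numbered libraries have similar depths and differ from the other number in like ways, but the labels do not say that a number marks a shared culture, batch or day, so this fit is an alternative, and as the interval was chosen on this contrast nothing is read from the counts. Each gene's adjusted p below is from edgeR without the library term unless named otherwise.

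On either side of the interval the medians were above 0. Over the 10 Mb before it the median log2 fold change of 38 tested genes was 0.18, and over the 10 Mb after it that of 16 genes was 0.47. The whole of the short arm before it had a median of 0.33 over 194 genes, and the long arm 0.11 over 364. The nearest tested gene before the interval, UPP1, had a log2 fold change of -0.09 ± 0.85 (SE), and the nearest after it, the pseudogene YWHAEP1, 0.15 ± 0.64. The interval, at -1.27 over 14 genes, had the lowest median of the 276 windows of 10 Mb that held 10 or more tested genes. The next lowest medians were -1.21 over 80 genes (chromosome 22 from 20 Mb) and -1.10 over 62 genes (chromosome 2 from 70 Mb). A median of about this size was thus not particular to the interval. The rank of the interval is a description, since fold changes entered its choice.

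**Figure D4:**
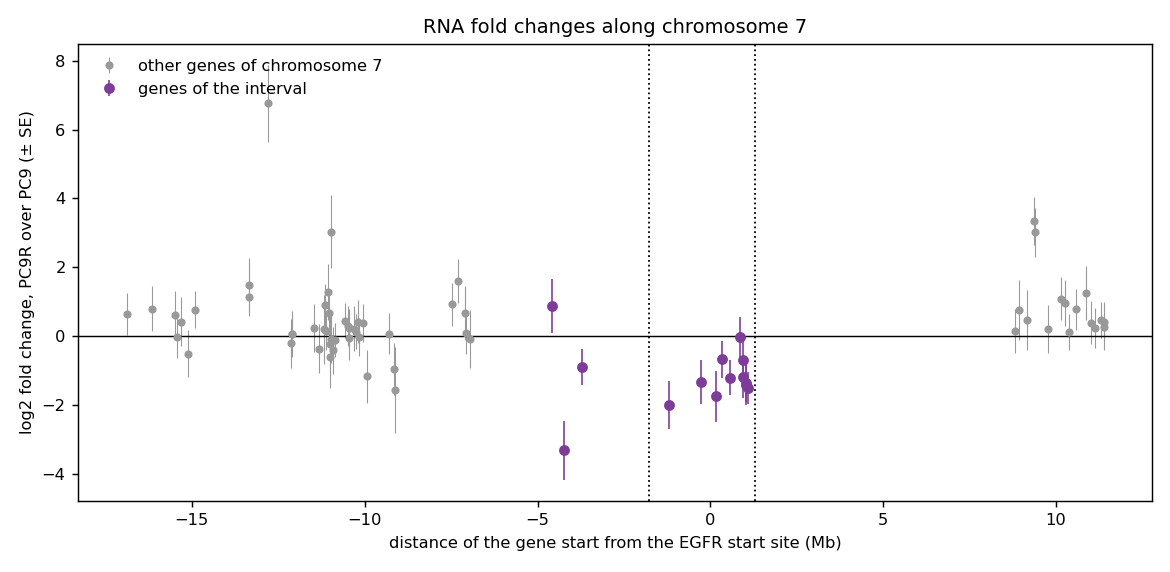
Log2 fold change of PC9R over PC9 (± SE, edgeR) for each tested gene of chromosome 7 by distance from the EGFR start site (Mb), genes of the interval in purple, EGFR left out, dotted lines at the edges of the dense DHS stretch. The interval's genes lie between -3.32 and 0.87 with a median of -1.27, and those of the 10 Mb on either side have medians of 0.18 and 0.47.

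Left of the stretch, 3 tested genes behaved differently from each other. GRB10, an adaptor protein that binds insulin and growth factor receptors, had 1.03 and 0.713 CPM in the PC9R libraries, against 14.1 and 3.40 CPM in the PC9 libraries. The groups did not overlap, but the PC9R values rest on 36 and 12 counts. GRB10 is listed under 3 transcripts, so reads they share may have been dropped in counting, as for SUMF2. Its log2 fold change was -3.32 ± 0.86 (SE, adjusted p = 0.21), -3.76 between first and -2.21 between second libraries. Left-out libraries moved it most in this set, to -1.96 without the first PC9 library and -4.03 without the second. COBL, an actin nucleator of epithelial cell surfaces, had 113 and 95.7 CPM in PC9R, against 215 and 174 CPM in PC9, with a log2 fold change of -0.89 ± 0.52 (adjusted p = 0.902) and -1.06 to -0.75 with a library left out. FIGNL1, an ATPase of DNA repair by recombination, had 0.883 and 1.66 CPM in PC9R and 0.470 and 0.934 CPM in PC9, which overlapped, on 31 counts or fewer per library. It was the only tested gene of the interval with a fold change above 0, at 0.87 ± 0.77 (adjusted p = 0.999) and 0.35 to 1.39 with a library left out.

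Inside the stretch before EGFR there were 2 tested genes, LINC01446 and SEC61G. LINC01446, a long noncoding RNA, had 3.84 and 7.01 CPM in PC9R, against 13.6 and 29.8 CPM in PC9, without overlap. Its log2 fold change was -2.00 ± 0.70 (adjusted p = 0.445), -1.82 between first and -2.08 between second libraries, and -2.51 to -1.35 with a library left out. SEC61G, the gamma subunit of the channel through which proteins enter the endoplasmic reticulum, had 30.7 and 58.3 CPM in PC9R and 77.4 and 147 CPM in PC9. The groups did not overlap, and the log2 fold change was -1.33 ± 0.63 (adjusted p = 0.76), -1.33 between first and -1.33 between second libraries. With a library left out it was less steady, at -1.89 without the second PC9R library and -0.82 without the second PC9 library. EGFR had 531 and 1022 CPM in PC9R, against 1868 and 2052 CPM in PC9. EGFR-AS1, an antisense transcript within EGFR, had 4.10 and 1.96 CPM in PC9R and 14.7 and 5.74 CPM in PC9, a log2 fold change of -1.75 ± 0.75 (adjusted p = 0.669), -2.38 without the first PC9R library and -0.92 without the first PC9 library. The strand used in counting is not stated, so its reads and those of EGFR cannot be told apart.

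Next beyond EGFR are LANCL2, VOPP1 and ZNF713. LANCL2, a relative of the bacterial lanthionine synthetases, had 158 and 239 CPM in PC9R, against 264 and 370 CPM in PC9. The higher PC9R library was below the lower PC9 library by a small margin, and the log2 fold change was -0.68 ± 0.53 (adjusted p = 0.999), -1.02 to -0.40 with a library left out. VOPP1, a vesicle membrane protein found overexpressed in tumours, had 153 and 216 CPM in PC9R and 374 and 478 CPM in PC9. These groups stood further apart, with a log2 fold change of -1.21 ± 0.52 (adjusted p = 0.669), -1.29 between first and -1.15 between second libraries, and -1.49 to -0.98 with a library left out. ZNF713, a zinc finger protein, had 15.9 and 19.2 CPM in PC9R and 15.1 and 20.9 CPM in PC9. It alone in the stretch had about equal levels, with a log2 fold change of -0.04 ± 0.58 (adjusted p = 0.999) that changed sign under other settings, although it lies between genes with lower levels in PC9R.

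The remaining genes lie within 400 kb of the right edge. MRPS17, a protein of the mitochondrial ribosome, had 99.0 and 230 CPM in PC9R, against 280 and 476 CPM in PC9, with a log2 fold change of -1.20 ± 0.61 (adjusted p = 0.819), -1.95 without the second and -0.71 without the first PC9R library. NIPSNAP2, a mitochondrial protein whose gene overlaps MRPS17, had 38.6 and 69.2 CPM in PC9R and 64.5 and 111 CPM in PC9, which overlapped, with a log2 fold change of -0.70 ± 0.60 (adjusted p = 0.999), -1.20 without the second PC9R library and -0.28 without the second PC9 library. Reads of this overlapping pair may have been divided between them. PSPH, the phosphatase of the last step of serine synthesis, had 139 and 234 CPM in PC9R, against 409 and 551 CPM in PC9. CCT6A, a subunit of the CCT chaperonin that folds actin and tubulin, had 97.5 and 227 CPM in PC9R, against 361 and 502 CPM in PC9. PSPH and CCT6A are divergent neighbours. In PC9 a single DHS peak (chr7:56118890-56119672) covered both start sites. In PC9R separate peaks lay there, at chr7:56118896-56119338 and chr7:56119465-56119677. For PSPH and for CCT6A the CPM groups did not overlap between the lines. Their log2 fold changes were -1.36 ± 0.54 for PSPH (adjusted p = 0.581) and -1.41 ± 0.59 for CCT6A (adjusted p = 0.652). Without the second and without the first PC9R library they were -1.80 and -1.03 for PSPH and -2.16 and -0.93 for CCT6A.

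CHCHD2, a mitochondrial protein that also acts on transcription in the nucleus, was the most highly expressed of the 14. It had 587 and 768 CPM in PC9R, against 2057 and 1778 CPM in PC9. Here the line difference was several times the spread within a line, and the log2 fold change was -1.50 ± 0.47 (adjusted p = 0.331), -1.81 between first and -1.21 between second libraries, and -1.72 to -1.32 with a library left out. Per kilobase of exon it stood at percentile 99.5 of 11089 tested coding genes in PC9R and 99.9 in PC9. By the same measure SEC61G stood at 93.2 in PC9R and 97.5 in PC9, PSPH at 92.3 and 97.3, MRPS17 at 92.1 and 96.7, and VOPP1 at 88.5 and 94.9. PSPH, CCT6A and CHCHD2 have pseudogene copies elsewhere, and how reads that fit more than 1 copy were treated is not stated.

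**Figure D5:**
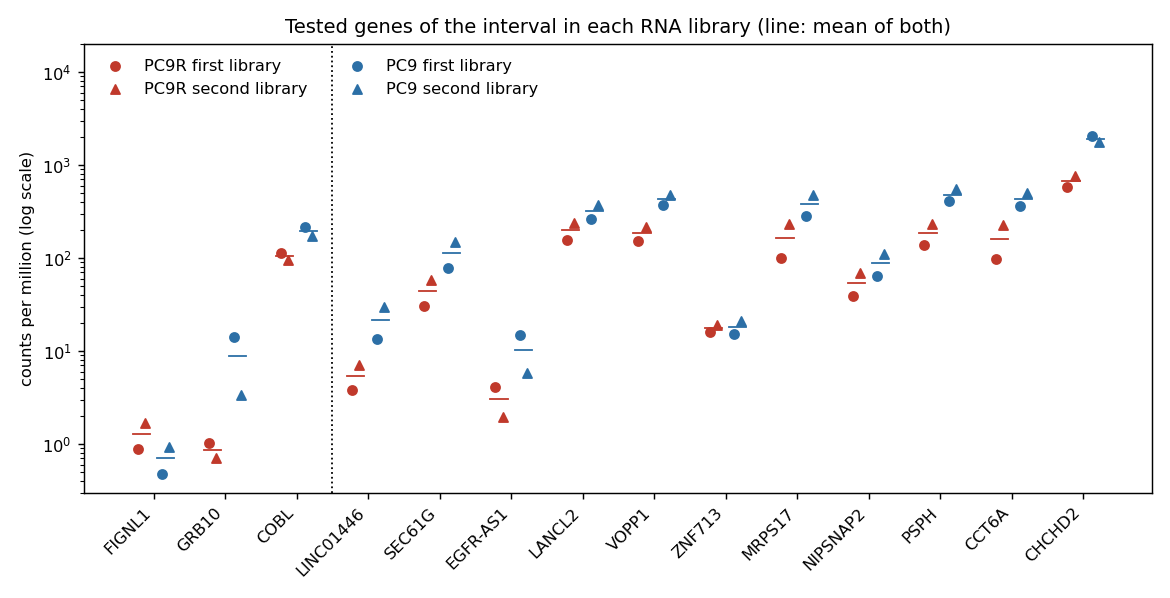
CPM (log scale) of the 14 tested genes in each RNA library in order along the chromosome, PC9R left of PC9 for each gene, circles for first and triangles for second libraries, short lines for the mean of the pair; the dotted line separates the 3 genes left of the dense DHS stretch. In 11 genes both PC9R libraries lie below both PC9 libraries, and ZNF713 and FIGNL1 are among those that overlap.

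Partners of these genes that lie outside the interval gave a mixed picture. Calls here are those of the fit with the library number as a term, which called 9.57% of all genes lower and 11.2% higher, and 6403 of 12660 genes had fold changes below 0 without that term. As for the interval nothing is read from these calls. Of the 7 other CCT genes tested, all had fold changes below 0, with a median of -0.70 and 4 called lower, against -1.41 for CCT6A. CCT7 lay further from 0 than CCT6A at -3.28 on 47 counts or fewer per library. CCT7 is listed under 6 transcripts, so reads they share may have been dropped in counting. Of 27 other small mitochondrial ribosome genes, 24 had fold changes below 0, with a median of -0.31 and 6 called lower, against -1.20 for MRPS17. Of 4 other SEC61 translocon genes tested, 2 were below and 2 above 0, with a median of -0.10, against -1.33 for SEC61G. SEC63 was the 1 called lower among them. Of 6 other twin CHCH genes tested, 5 were below 0, with a median of -0.72 and 3 called lower, and CHCHD10 had -2.75, further from 0 than the -1.50 of CHCHD2.

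In serine synthesis PHGDH, the first enzyme, had 566 and 395 CPM in PC9R and 1729 and 536 CPM in PC9. These overlapped, and the PC9 mean rests on its first library. PHGDH had a log2 fold change of -1.24, against -1.36 for PSPH, and was called lower. PSAT1, the second enzyme, had 4.04 and 30.1 CPM in PC9R and 9.91 and 20.4 CPM in PC9, also with overlap. Its log2 fold change was 0.17, and it was not called. Of 3 other NIPSNAP genes, with a median of -0.22, NIPSNAP1 was called lower and NIPSNAP3A higher, and NIPSNAP1 at -2.31 lay further from 0 than NIPSNAP2 at -0.70. LANCL1 had -0.15 on 19 counts or fewer per library, with 0.75 between first and -0.83 between second libraries. It is listed under 3 transcripts, so reads they share may have been dropped in counting. The 3 phosphorylase kinase genes tested had a median of -0.21 with 0 called, and SUMF1, like SUMF2, had 0 counts. SUMF1 is listed under 3 transcripts, so its 0 is not read as absence either. Of the genes often gained with EGFR in tumours, SEC61G, LANCL2 and VOPP1 had a median of -1.21 and were all called lower, and VSTM2A was not tested. None of these partner genes was called without the library term. CCT6A, MRPS17, SEC61G and CHCHD2 each lay below the median of their partners, as a description with no test, since the interval was chosen on this fold change.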

How the data were processed

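The members and lists were chosen with earlier results of these data known. The files used were 4 tables of deposited read counts per RefSeq accession and 4 deposited peak lists with a score per peak. The submitters' processing notes list hg19 as the build and MACS2, TopHat, HTSeq and DESeq as tools, with neither versions nor what each did. The sources used here do not give the peak threshold, the control library or the counting mode.

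Counts were summed per gene (41556 of 42811 accessions matched a name), and 8198 genes have more than 1 accession. Reads shared by the accessions of such a gene may have been dropped in the authors' counting. That limit applies to 5 of the 14 tested genes of the interval. Genes were placed with GENCODE 44 lifted to GRCh37, those without a single position were left out, and no peak ran past a chromosome end. edgeR 4.0.16 (R 4.3.3) fitted filtered counts with TMM scaling over 12660 genes, with Benjamini-Hochberg adjustment over all. The SE was taken as fold change over the square root of F. Tried besides were upper quartile and RLE scaling, a stricter filter and none, the library number as a block, DESeq2 1.42.0, limma 3.58.1 (voom), each library left out, and only genes with 1 accession. The edgeR step was tested on simulated counts that varied less between libraries than these do and had no library effect. That check therefore gives no power or error rate for the fits reported.

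Peaks were assigned by centre and overlaps needed 1 base. Dense stretches were runs of 100 kb bins over 5 times the genome mean, with at most 1 lower bin inside; the Poisson edge fit was added after seeing the data and searched 50 to 58 Mb. In the interval 8.01 Mb is assembled. Named genes are all tested genes of the interval, untested ones with a known role, nearest tested neighbours and the partner lists. Depth of the peak libraries is unknown. Intervals are exact binomial ones and cover counting error only.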

Additional observations from a re-analysis of the deposited data

How the results depend on the processing

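Called genes of the interval numbered 0 of 14 in the fit reported (0.253% of all genes called), under RLE scaling (0.324%) and limma-voom (0.577%). With only genes with 1 accession they numbered 0 of 9 (0.746%). Upper quartile scaling and the stricter filter (12 tested) called 0 of all genes, so their 0 in the interval says nothing about its genes. Called genes of the interval numbered 1 of 19 with no filter (2.47%), 1 of 14 with DESeq2 (3.01%) and 12 of 14 with the replicate block (20.8%). At the scaling of the fit reported, the second-minus-first differences of the lines correlated at 0.764 over genes. The biological coefficient of variation was 0.180 with the replicate block and 0.498 without it. With 2 pairs this is a hint and no pairing. The median log2 fold change stayed below 0 in every setting, at -1.60 to -0.96 with a library left out and -1.30 with the block. ZNF713 changed sign, to 0.017 under upper quartile scaling, and ranged from -0.26 to 0.20 with a library left out (0.10 without the first PC9R library, 0.20 without the second PC9 library). No other tested gene did.

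DHS peaks in the interval were 570 in PC9R with lists of equal numbers, and 411 in PC9R and 43 in PC9 outside the dense stretch. H3K4me2 peaks were 167 in PC9R and 101 in PC9 at or above the median score. The dense DHS stretch of PC9R measured 11400 kb at 3 times the mean, 1200 kb at 8 times and 7000 kb for peaks at or above the median score. The dense H3K4me2 run measured 100 kb in PC9R and 50 kb in PC9 with 50 kb bins, 400 kb in both at 3 times the mean, 400 kb in PC9 for the higher-scored peaks, and 1790 kb in PC9R and 1590 kb in PC9 by the edge fit; no H3K4me2 bin reached 8 times. The DHS share found in the other line was 29.2%, 31.9% and 44.9% in PC9R and 45.3%, 49.5% and 41.8% in PC9 under 50% reciprocal overlap, higher-scored peaks and equal lists. The DHS share with H3K4me2 was 4.93% in PC9R and 0.957% in PC9 under 50% reciprocal overlap, and 8.74% in PC9R for higher-scored peaks. The H3K4me2 share found in the other line was 20.4%, 62.9% and 62.6% in PC9R under the same 3 settings, and 38.7% and 87.1% in PC9 under reciprocal overlap and higher-scored peaks. The causes of these moves were not tested. With 2 RNA libraries and 1 peak library per line and assay, precision is limited.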
